A study of Drosophila melanogaster with 3 samples.

Results

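Peaks of Runt-GFP at 4 Drosophila genes for chromatin proteins, Trl, Chro, tara and Tlk, were described in whole embryos. The 4 genes were chosen by the strength and number of their peaks in the same lists described here, so their counts, signal values and ranks are a description and were not tested. A peak was counted for a gene when its summit, the base of highest signal, lay in the gene's annotated span or within 5 kb of it. By this rule 24 of the 3065 peaks kept by the authors at their threshold on irreproducible discovery rate (IDR) belonged to these genes, which are 4 of 13945 protein-coding genes on the 6 arms. Trl had 3 of them, Chro 1, tara 10 and Tlk 10.

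Chromatin immunoprecipitation and sequencing (ChIP-seq) was done with an anti-GFP antibody in a transgenic Drosophila melanogaster line that stably expresses Runt, the product of run, with GFP at its C-terminus. The samples formed 1 group of 3 biological replicates of embryos aged 0 to 16 hours, whose sex was not collected, and all carried the same insertion, so there was no second condition or genotype to compare. The sources used here do not name the promoter that drives the transgene, and whole embryos mix cell types and stages. Each replicate's list, and the list called on the pooled replicates, held 30000 peaks ranked here by signal value, with rank 1 the strongest. Sequencing depth is unknown, and the lists share 1 control alignment.

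Runt is a RUNX-family transcription factor, which binds DNA through its Runt domain with a partner protein and can activate or repress genes. Trl encodes GAGA factor, which binds GA-rich repeats and helps to keep promoters and enhancers free of nucleosomes. Chro encodes Chromator, a chromodomain protein of polytene interbands and of the mitotic spindle, found with Z4 (pzg), the kinase JIL-1 and boundary proteins such as BEAF-32. The gene tara (taranis) belongs to the trithorax group, whose members keep homeotic genes active, and Tlk encodes Tousled-like kinase, which phosphorylates the histone chaperone Asf1. These roles are background and were not measured here.

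The sequence around a few summits shows what the peaks contained. The windows below span 50 bases to each side of a summit on the plus strand of Release 6 (dm6 coordinates). The strongest summit of each of Trl, tara and Tlk comes first, and none of the 3 windows held the RUNX consensus, TGNGGTN with C or T at each N, on either strand. The window of the Chro summit had no match either. Among all IDR summits only 9.36% had the consensus within 50 bases, so a window without it was the usual case.
Trl summit 1, chr3L:14759460-14759560: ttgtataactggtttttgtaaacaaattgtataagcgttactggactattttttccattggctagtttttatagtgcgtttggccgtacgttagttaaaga
tara summit 2, chr3R:16222448-16222548: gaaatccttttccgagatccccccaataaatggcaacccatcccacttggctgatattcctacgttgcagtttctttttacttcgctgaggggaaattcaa
Tlk summit 3, chrX:3742147-3742247: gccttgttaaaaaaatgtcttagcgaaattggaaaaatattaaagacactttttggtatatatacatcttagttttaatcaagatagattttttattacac
The next pair of windows are those with the consensus, in capitals, read on the plus strand at tara and on the minus strand at Tlk.
tara summit 5, chr3R:16231630-16231730: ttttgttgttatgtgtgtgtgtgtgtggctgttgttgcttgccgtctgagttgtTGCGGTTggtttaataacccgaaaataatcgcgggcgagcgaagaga
Tlk summit 2, chrX:3741109-3741209: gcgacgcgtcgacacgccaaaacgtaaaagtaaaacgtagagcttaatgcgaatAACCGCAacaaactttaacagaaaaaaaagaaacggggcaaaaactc
The window of Tlk summit 4 has the 6-base core TGNGGT, with C or T at the N, on both strands (capitals) but not the 7-base consensus.
Tlk summit 4, chrX:3742940-3743040: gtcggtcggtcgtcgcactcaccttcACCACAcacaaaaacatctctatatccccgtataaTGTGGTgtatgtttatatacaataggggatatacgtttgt
Tlk summit 10 had the most matches to GAGAG, a short form of the GAGA factor repeat, in capitals on either strand.
Tlk summit 10, chrX:3777383-3777483: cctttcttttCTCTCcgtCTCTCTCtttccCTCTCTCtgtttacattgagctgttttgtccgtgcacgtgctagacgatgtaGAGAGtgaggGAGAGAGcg
At Chro a short stretch beside the summit is shown, with CGATA, a motif of BEAF-32, in capitals. CGATA was within 50 bases of 13.3% of all IDR summits, and binding of BEAF-32 was not measured.
Chro site, chr3L:22878880-22878908: tgtattgcctgtCGATAgctttaaactaa

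Trl and Chro had few summits, of which the strongest at each gene was among the 20 strongest peaks of the IDR list, while tara and Tlk had many, mostly in long introns. An IDR summit in the span or within 5 kb was common among all protein-coding genes (33.8%), so having 1, as Chro did, set no gene apart. At least 10 summits were found at 8 genes, or 0.0574% of all, and tara and Tlk were among these 8. By span, 5 of the 8 were among the 307 genes over 50 kb, the class of Tlk. Another 1 was among the 706 genes from 20 to 50 kb, the class of tara. The classes up to 5 kb and from 10 to 20 kb held 1 each. At least 3 summits, the count of Trl, were found at 495 genes (3.55%). Among each replicate's own 3065 strongest peaks, Trl had 3, 2 and 3 summits in replicates 1, 2 and 3 (2.67 ± 0.577, SD, n = 3), and Chro had 1 in each. In the same lists tara had 7, 7 and 12 (8.67 ± 2.89, n = 3) and Tlk had 10, 12 and 9 (10.3 ± 1.53, n = 3). The ranges of tara and Tlk overlapped, with tara lower than Tlk in replicates 1 and 2 and higher in replicate 3. Per length of span with its 5 kb flanks, the density of IDR summits was 2.24 per 10 kb at tara, 1.30 at Trl, 1.25 at Tlk and 0.654 at Chro, against 0.229 over the 6 arms.

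**Figure D1:**
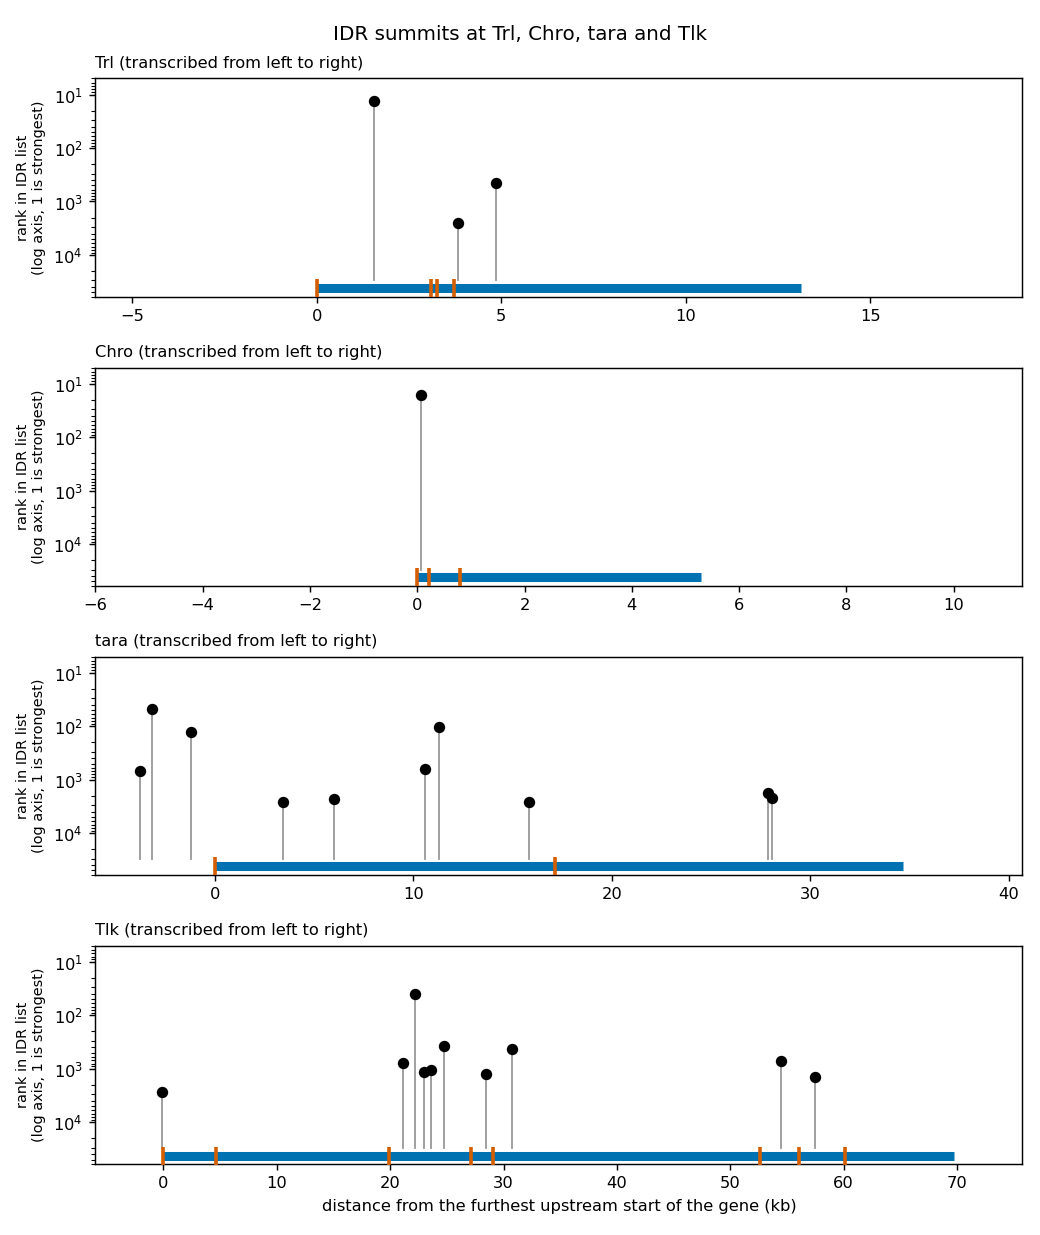
Each dot is an IDR summit of Trl, Chro, tara or Tlk, placed by its distance from the gene's furthest upstream annotated start (x axis, kb) and by its rank in the IDR list (y axis, log scale, strongest at the top). The bar is the annotated span and the vertical marks are annotated starts; 7 of the 10 Tlk summits lie within 9.59 kb, and 3 of the 10 tara summits lie before the gene.

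Trl (FBgn0013263) spans 14747929 to 14761049 on chromosome 3L (dm6, minus strand) and has 10 annotated transcripts from 4 starts. Its summit 1, at 14759510 in a peak from 14759328 to 14759711, had a signal value of 1263 and was peak 13 of the IDR list. This peak ranked 8, 15 and 15 in replicates 1, 2 and 3 (12.7 ± 4.04, n = 3), and the 3 replicate summits lay within 14 bases of each other, the smallest spread among the 24. It lay in the intron of the single transcript that begins furthest upstream, 1539 bases inside that start and 1548 bases upstream of the start at 14757962, which 7 of the 10 transcripts use. Summit 3, at 14756194 in an intron, had a signal value of 350.3 and rank 456, with ranks of 559, 425 and 385 in the replicates. Summit 2, at 14757210, lay in the 5′ UTR, 126 bases inside the start of 1 transcript, and was far weaker, with a signal value of 145.6, IDR rank 2502 and replicate ranks of 1305, 5115 and 2332. Replicate 2 was the low one there, and its peak was outside the strongest 3065. CG42507 overlaps the gene and shares the start at 14757962, and Mgat4a and Tsen34 also lay within 5 kb of summits, so the lists do not say to which gene these peaks belong.

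Chro (FBgn0044324) spans 22873702 to 22878984 on chromosome 3L (minus strand), with 5 transcripts from 3 starts. Its only IDR summit, at 22878911 in a peak from 22878737 to 22879074, had a signal value of 1211 and was peak 16 of the list. It ranked 19, 11 and 23 in replicates 1, 2 and 3 (17.7 ± 6.11, n = 3), with summits within 34 bases of each other. The summit lay 73 bases inside the furthest upstream start and 143 bases upstream of the start at 22878768 that 3 of the 5 transcripts use. It also lay 178 bases from the divergent start, at 22879089, of Ssl1, which encodes a subunit of the general transcription factor TFIIH, and the peak covers that Chro start and stops just short of the Ssl1 start. The amino acid transporter gene slif was within 5 kb as well. The next pooled peak counted for Chro was below the IDR list, at rank 8016 with a signal value of 74.39, so a single strong peak stood against 5 weak ones.

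The tara gene (FBgn0040071) spans 16225651 to 16260329 on chromosome 3R (plus strand) and has 2 transcripts, from starts 17165 bases apart. Its strongest IDR summit, tara 2 at 16222498, lay 3153 bases upstream of the gene with a signal value of 887.7 and IDR rank 48. It ranked 44, 46 and 59 in replicates 1, 2 and 3 (49.7 ± 8.14, n = 3). It is the middle of 3 intergenic summits within 2.60 kb, and no other protein-coding gene lay within 5 kb of any of the 10. The one nearest to the gene, tara 3 at 16224489, was 1162 bases upstream with a signal value of 628.5 and ranks of 186, 106 and 119. The furthest, tara 1 at 16221889, had a signal value of 288.9 and ranked 12602 in replicate 1 but 608 and 518 in replicates 2 and 3. The replicates therefore differed most at the outer edge of the upstream group.

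The other 7 tara summits lay in the introns. The strongest was tara 7 at 16236965, between the starts, with a signal value of 677.0, IDR rank 104 and ranks of 78, 125 and 108. Its neighbour tara 6 at 16236238, 727 bases away, had a signal value of 304.1 and ranks of 1097, 738 and 371. The remaining 5 were weaker, with IDR ranks from 1790 to 2663. Of these, tara 4 at 16229112 ranked 3510, 4318 and 1903 in the replicates, and tara 5 at 16231680, the summit with the RUNX consensus, ranked 1624, 5641 and 1686. The IDR summit nearest to the downstream start was tara 8 at 16241496, 1320 bases before it, with ranks of 5691, 3367 and 3081, all outside the strongest 3065. Summits tara 9 at 16253526 and tara 10 at 16253729 were 203 bases apart and had ranks of 4246 and 10004 in replicate 1 and of 1138 and 3681 in replicate 2. In replicate 3 both were covered by 1 peak of rank 1756. Their nearest protein-coding start was that of bor, 10569 and 10366 bases away. Without replicate 3 only 4 of the 10 tara peaks, and without replicate 2 only 5, were matched by strongest peaks of both remaining replicates, against 7 without replicate 1.

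Tlk (FBgn0283657) spans 3720007 to 3789770 on the X chromosome (plus strand), with 14 transcripts from 8 starts. Its strongest IDR summit, Tlk 3 at 3742197, had a signal value of 946.1 and IDR rank 40, and ranked 35, 37 and 52 in replicates 1, 2 and 3 (41.3 ± 9.29, n = 3). It was 22190 bases into the gene, in an intron. Around it, 7 summits (Tlk 2 to Tlk 8) lay within 9.59 kb, with IDR ranks from 40 to 1266. Of these, Tlk 6 at 3744791 had a signal value of 379.5 and ranks of 505, 576 and 248, and Tlk 8 at 3750749 had 362.2 and ranks of 553, 437 and 375. Both were within the strongest 3065 of every replicate, as were Tlk 2, 3, 5 and 7. Tlk 4 at 3742990 was uneven, with ranks of 1863, 457 and 3946, and was the only one of the 7 outside the strongest 3065 of a replicate. The group covers the annotated starts 27156 and 29054 bases into the gene, and Tlk 7 at 3748423 lay 638 bases before the latter.

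The other 3 Tlk summits lay at the beginning and in the downstream part of the gene. Tlk 1 at 3719872 was the only summit at the start used by 6 of the 14 transcripts, 135 bases before it and 237 bases before the divergent start of Rala, which encodes a Ras-like GTPase. It was the weakest of the 24, with a signal value of 138.6, IDR rank 2746 and replicate ranks of 3880, 1809 and 5441. Tlk 9 at 3774492 had a signal value of 282.8 and even ranks of 801, 613 and 892. Tlk 10 at 3777433 ranked 1452, 1121 and 2762 and lay inside the annotated microRNA gene mir-4962, 51 bases from its start. The Tlk start with the most annotated transcripts therefore had the weakest peak, and the stronger ones lay inside the gene.

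By the rank of the strongest peak the order was Trl, Chro, Tlk, tara in the IDR list. Trl and Chro did not differ beyond their spread, since their ranges overlapped and Chro was ahead in replicate 2. The ranges of Tlk and tara overlapped too, although Tlk was ahead in each replicate. The weakest rank of Chro, 23, was still ahead of the strongest of Tlk, 35. A strongest peak ranked at least as well as in these genes was found at 43 genes for Trl, 54 for Chro, 118 for Tlk and 133 for tara, because neighbouring genes share peaks.

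**Figure D2:**
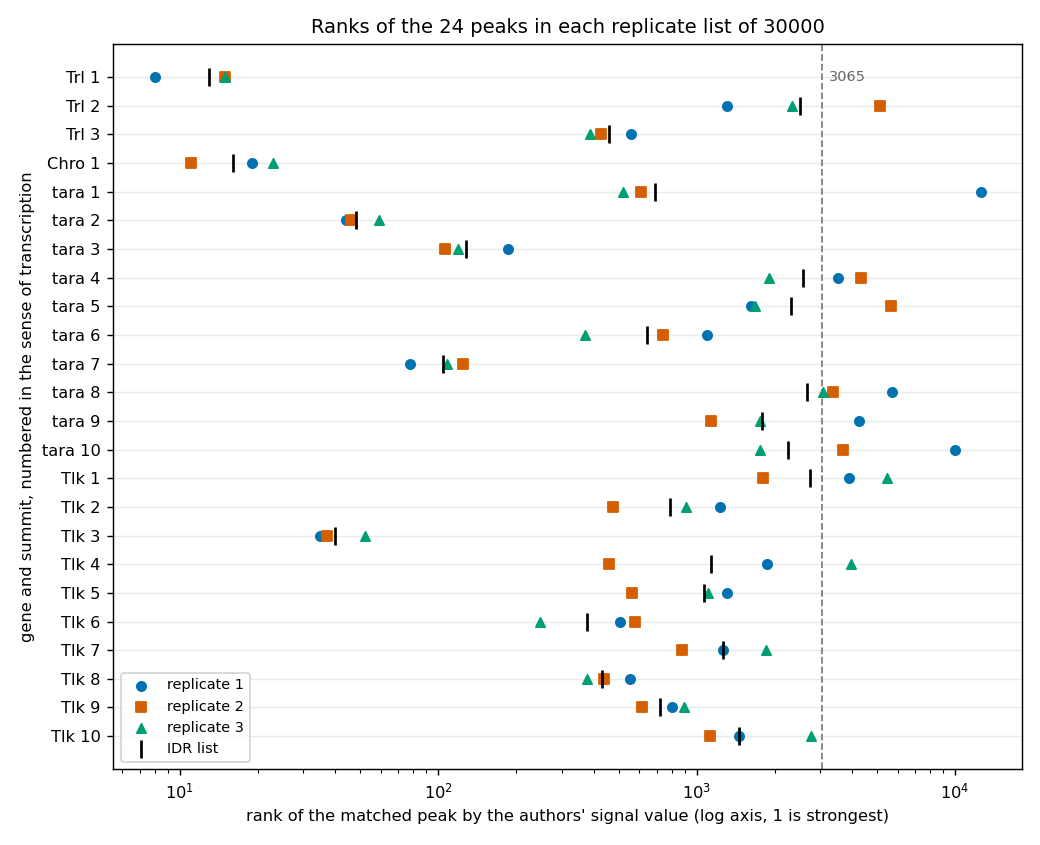
Rank of each of the 24 IDR peaks in the lists of replicates 1, 2 and 3 (horizontal log axis, strongest on the left), with 1 row per peak, a black tick at its IDR rank and the dashed line at rank 3065. The strongest peak of each gene sits within a narrow range in the 3 replicates, while tara 1 runs from 518 to 12602.

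All 24 peaks (100%) had an overlapping peak in all 3 replicate lists, near the 99.2% of all IDR peaks, which were called on the same reads. The 95% Clopper-Pearson interval of this share, here and below for counting error alone, was 85.8 to 100. Only 15 of the 24 (62.5%, interval 40.6 to 81.2) were overlapped by peaks among the strongest 3065 of every replicate, against 57.7% of all IDR peaks. These 15 were Trl 1 and 3, Chro 1, 4 of the 10 tara peaks and 8 of the 10 Tlk peaks. They all came from the stronger 1532 of the IDR list, where 15 of 17 peaks of these genes (88.2%) were matched in this way, against 92.2% of all. None of the 7 in the weaker 1533 was, against 23.1% of all. Replicate summits of 1 peak lay within a median of 53 bases (14 to 189), against 57 for all IDR peaks.

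The summits of the 4 genes lay more often inside introns and less often at starts than the IDR list as a whole, without a test. An annotated start lay within 500 bases of 4 of the 24 summits (16.7%), namely Trl 2, Chro 1, Tlk 1 and Tlk 10, the last through mir-4962, against 44.8% of all IDR summits. Within 250 bases the shares were 16.7% and 33.9%, and within 1 kb 29.2% and 55.7%. An intron held 17 of the 24 (70.8%, interval 48.9 to 87.4), against 38.5%. Between genes lay 3, all at tara, or 12.5% against 14.2%. Another IDR summit within 1 kb was found for 9 of the 24 (37.5%, interval 18.8 to 59.4), against 13.5%. All 9 lay at tara and Tlk. The 4 genes were chosen partly by their number of peaks, so this share was in part set by the choice. The 24 summits share 4 genes, and tara and Tlk are long, so these shares describe a few loci and not independent sites.

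**Figure D3:**
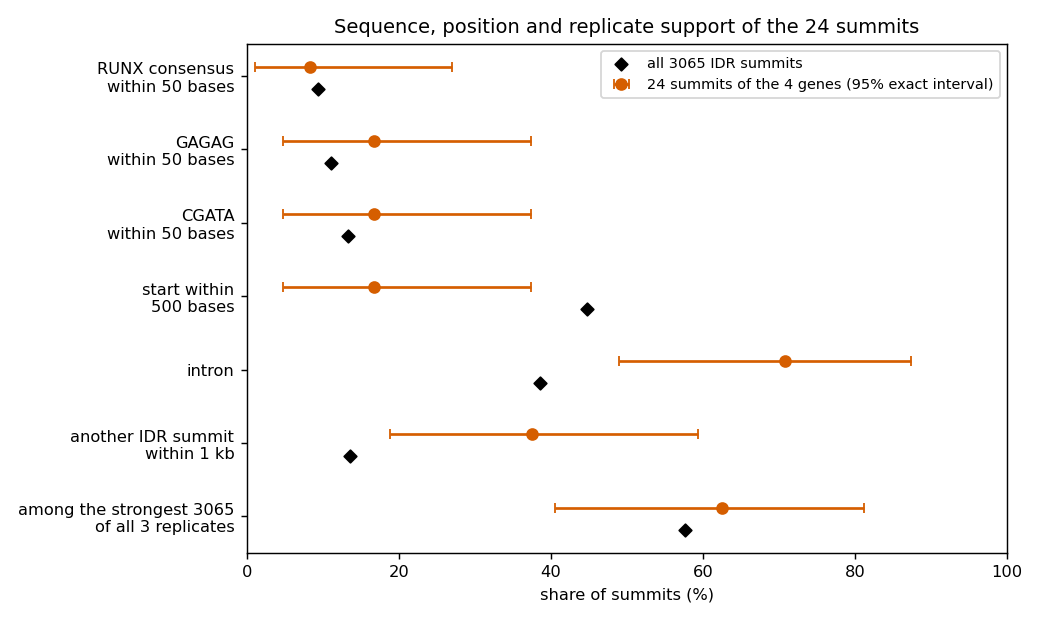
Share (%) of the 24 summits of Trl, Chro, tara and Tlk and of all 3065 IDR summits with each feature, with 95% Clopper-Pearson intervals (counting error only) for the 24. Introns held 70.8% against 38.5%, and a start lay within 500 bases of 16.7% against 44.8%, while the share with the RUNX consensus was 8.33% against 9.36%.

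Shares of summits with a sequence motif are set beside those of the whole list, without a test. The RUNX consensus lay within 50 bases of 2 of the 24 summits (8.33%, interval 1.03 to 27.0), against 9.36% of all IDR summits. Within 25 bases the share was also 8.33%, against 5.35% of all, and within 100 bases it was again 8.33%, against 14.6%, so which share was higher turned with the window. Both matches read TGCGGTT, and the nearer end of each lay 4 bases from the summit. The one at tara 5 lies at 16231684 to 16231690 on chromosome 3R, and the one at Tlk 2 at 3741163 to 3741169 on the X. Neither summit is the strongest of its gene, with IDR ranks of 2323 and 789. The 6-base core, which includes the consensus, was present at 4 (16.7%) against 13.3%, the other 2 being Tlk 4 and Tlk 6, each with a pair of cores, as in 39 of all 3065 windows. GAGAG was present at 4 (tara 4, tara 7, tara 9 and Tlk 10) against 11% of all windows. Tlk 10 held 8 overlapping or separate matches, a number reached by 6 of all 3065 windows. None of the 3 Trl summits held GAGAG within 50 bases, as was the case for most windows of the whole list. CGATA was present at 4 (Chro 1, tara 1, tara 8 and Tlk 1) against 13.3%, and at Chro it lay 15 bases from the summit. Windows had 35.1% ± 9.52 GC (SD over 24 windows, 21.8 to 49.5), against 34.4% ± 10.5 over all. A match to these letters shows neither a bound site nor the factor that binds it.

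The edges of the choice were as follows. The outermost summits counted lay 3762 bases from the span at tara and 135 at Tlk, and inside the span at Trl and Chro. The nearest IDR summits not counted lay 20.3 kb away at Trl, 8.44 kb at Chro, 20.4 kb at tara and 5.79 kb at Tlk. The one beyond tara was strong, with IDR rank 26, whereas that beyond Tlk had rank 2009. Further pooled peaks counted for the genes but below the IDR list numbered 5 at Trl, 5 at Chro, 35 at tara and 27 at Tlk. The weakest peak inside the list and the strongest outside it had signal values of 145.6 and 109.5 at Trl, 141.0 and 123.8 at tara, and 138.6 and 124.0 at Tlk. At tara the strongest one outside, of pooled rank 3391, overlapped a peak of rank 2533 in replicate 3. The summit of that replicate peak, at 16242760, lay within 500 bases of the downstream tara start at 16242816, where no IDR summit was counted. A few peaks were strong in a replicate and did not overlap an IDR peak, as at tara near 16235649, with rank 1513 in replicate 1 and, at 16235515, rank 2609 in replicate 2.

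Genes with the most similar strongest peaks were named by their distance in log10 rank over the 3 replicates. For Trl this was the peak at mRpS10, which also lies within 5 kb of Caf1-55, tefu, CG31344, CG34316 and Art3, with ranks of 9, 10 and 16 and a distance of 0.186. The next was that of PNPase, Gprk2 and Gcn2, with ranks of 10, 27 and 18 (0.284). For Chro the peak shared by Atat, aay and Shc, with ranks of 24, 13 and 33, was nearest (0.200), followed by the one at CenG1A, PolG2, Orc5, CG33307, mRpS23, Polr2C and GatC, with ranks of 21, 12 and 14 (0.223). For tara the nearest was the peak of chif, CaBP1, CG4455 and Hyls1, with ranks of 42, 38 and 62 (0.0881). The next was a peak counted for beat-Ib, with the start of CG13244 nearest and ranks of 52, 57 and 57 (0.119). For Tlk the same chif peak (0.111) and then the tara peak (0.148) were nearest. The distances rest on 3 replicates and on 1 peak per gene.

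Other chromatin genes were counted in 5 lists of 72 genes in all, by the same distance rule. IDR summits were found at 35 of the 72 (48.6%, interval 36.65 to 60.69), against the 33.8% of all protein-coding genes. Among the strongest 3065 peaks of replicates 1, 2 and 3, summits were found at 42, 39 and 32 of the 72. Of all 13945 protein-coding genes, 4922, 4732 and 4808 had one in these replicates, a background that also applies to each list below. The listed genes were longer than usual, with a median span of 4888.5 bases against 2166, and the share of all genes with a summit went from 29.0% in spans up to 5 kb to 59.3% in spans over 50 kb. Within classes of span, a summit was found at 12 of 37 listed genes up to 5 kb (29.0% of all genes of that class), 8 of 16 from 5 to 10 kb (40.8%), 8 of 9 from 10 to 20 kb (52.9%), 6 of 9 from 20 to 50 kb (53.5%) and the only listed gene over 50 kb. The own start was the nearest protein-coding start to the strongest peak in 17 of the 35. The same count was not made for all protein-coding genes, so whether 17 of 35 is usual is not known.

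The trithorax group, to which tara and Trl are counted genetically, had summits at 11 of 16 further members (68.8%, interval 41.34 to 88.98), against 33.8% of all genes, with 12, 13 and 11 in the replicates. These genes were long, with a median span of 11445 bases, and of all genes spanning 10 to 20 kb 52.9% had a summit. The strongest was at ash1, a histone methyltransferase gene (IDR rank 7, with the start of CG14100 nearest), followed by osa, a subunit gene of the Brahma remodeler (rank 65, 3 summits), and trx, the founding gene of the group (rank 99, 4 summits). The others were skd, brm, kis, Kdm5, mor, tna, kto and Snr1. Of the Polycomb group, which keeps homeotic genes silent, 11 of 21 had summits (52.4%, interval 29.78 to 74.29; 12, 11 and 9 in the replicates), led by Pc (rank 23, with the start of CG11309 nearest), Psc (rank 25) and ph-p (rank 38, 6 summits). The others were ph-d, phol, E(z), cg, Sfmbt, Scm, Su(z)2 and Su(z)12. Both lists had a median of 1 summit per gene, against 0 for all genes. All genes of 10 to 20 kb also had a median of 1, and the Polycomb genes had a median span of 7137 bases, in a class (5 to 10 kb) where the median over all genes was 0.

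The remaining lists are set beside the 33.8% of all protein-coding genes with a summit. Median spans were 4098 bases for the GAGA factor partners, 4173.5 for the interband and boundary genes and 3169.5 for the nucleosome assembly genes. These medians all lie in the class up to 5 kb, where 29.0% of all genes had a summit. That share is not the background of the longer genes in the lists. Of the genes with a summit, psq, mod(mdg4) and corto span 59393, 26556 and 9294 bases. JIL-1, east and Skel span 14442, 13788 and 9328, and the others with a summit at most 4967. The partners of GAGA factor had summits at 5 of 11 genes (45.5%, interval 16.75 to 76.62; 5, 6 and 5 in the replicates). These were mod(mdg4), which encodes BTB proteins of insulators (rank 314, with the start of tin nearest), corto (rank 1212, 3 summits), dre4, a subunit gene of the FACT histone chaperone (rank 1280), psq and Iswi. Of the interband and boundary genes related to Chro, 6 of 16 had summits (37.5%, interval 15.2 to 64.57; 10, 6 and 5 in the replicates). Cp190, which encodes an insulator protein, was strongest (rank 117, with the start of CG4338 nearest), then JIL-1, the histone H3 kinase found with Chromator (rank 249, 2 summits), and Dref, which encodes a factor of housekeeping promoters (rank 672, with the start of RpL13 nearest). Skel, east and BEAF-32 had weaker ones. Of the nucleosome assembly genes related to Tlk, 2 of 8 had summits (25%, interval 3.185 to 65.09; 3, 3 and 2 in the replicates), at Caf1-55, which encodes a histone-binding subunit (rank 10, with the start of mRpS10 nearest), and XNP, a remodeler gene (rank 409, with the start of Vps33B nearest). No IDR summit was counted for asf1, the gene for the substrate of Tlk. The asf1 gene spans 1505 bases, in the class up to 5 kb where 29.0% of all genes had a summit, so having none was common.

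**Figure D4:**
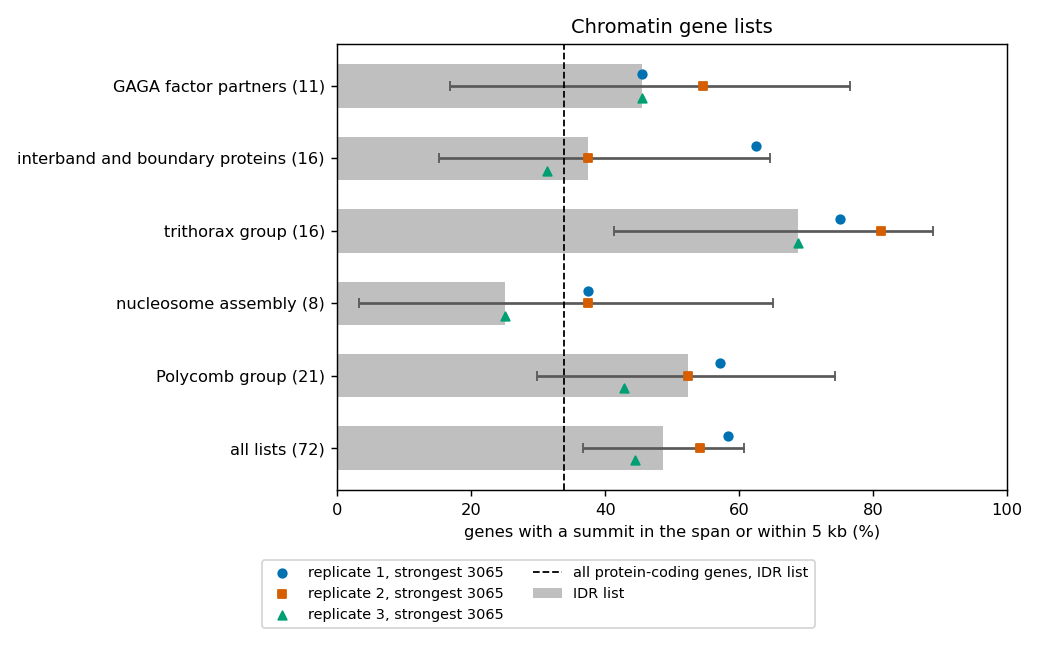
Share (%) of the genes in each chromatin list, and in all 72, with a summit in the span or within 5 kb. Bars are the IDR list with 95% Clopper-Pearson intervals (counting error only), points are the strongest 3065 peaks of each replicate, and the dashed line is the 33.8% of all protein-coding genes; the bars run from 25% for nucleosome assembly to 68.8% for the trithorax group.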

How the data were processed

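Peaks of each replicate were called by the authors against 1 shared control alignment, and pooled peaks on the pooled replicates, per the readme files. The sources used here name no aligner, caller or IDR cutoff. The deposited lists give dm6 positions, a signal value of unstated scaling, which served only for ranks within each list, and a −log10 q-value, which the authors deposited as 3.82 for every IDR peak. The IDR list was exactly the 3065 strongest pooled peaks. Control reads were not analysed here.

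The members and the gene lists were chosen with earlier results of these data known. Summits were assigned to gene spans annotated on BDGP6.54 by Ensembl release 115, and sequence was read from Release 6, whose arm lengths equal those of dm6. Coordinates are 1-based. Peaks matched when they overlapped by at least 1 base. Starts are those of protein-coding and noncoding RNA genes. Named were the 4 genes with every IDR summit, neighbours of these summits, and listed genes with a summit (values for the 3 best-ranked of each list). Also named were the genes at the 2 smallest distances from each member by strongest-peak rank. Genes sharing a strongest peak tied and were named together. Genes that shared an IDR summit with the member were left out of this comparison. All 72 listed genes were matched, 5 through synonyms. The assignment of summits and motifs was checked on planted data. No test was run. The software was Python 3.11.15 with pandas 2.3.3, numpy 2.4.6, matplotlib 3.10.9 and scipy 1.17.1.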

Additional observations from a re-analysis of the deposited data

How the results depend on the processing

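Of the 24 summits, 20 lay in the spans themselves, 21 within 1 kb, and 22 had the gene's own start nearest. A limit of 10 kb added summits, to 27 in all, with Chro going from 1 to 3 and Tlk from 10 to 11. The stronger 1532 of the IDR list held 17, with tara going from 10 to 5, Tlk to 9 and Trl from 3 to 2. Of the 24, 18, 17 and 16 were matched by strongest peaks of both other replicates when replicate 1, 2 or 3 was left out, from shorter lists of 2147, 2018 and 1986 peaks. The share overlapped in all 3 replicates moved from 100% to 62.5% when only strongest peaks counted. The 35 listed chromatin genes moved to 12 with summits in the span only (16.7% of the 72, against 9.21% of all genes), to 21 within 1 kb (29.2% against 18.8%) and to 18 by nearest start (25% against 14.9%). It was 41 within 10 kb (56.9% against 47.0%), 27 for the stronger peaks (37.5% against 21.6%) and 30 to 35 when a replicate was left out (41.7% to 48.6%, against 25.3% to 26.5%). The share of summits with the RUNX consensus ranged from 5.56% to 11.8%, and the share at starts from 11.1% to 17.6%, when a replicate was left out. These shares rest on only 18, 17 and 16 summits, and no shares over the whole shorter lists are given beside them. No paired analysis was possible because the samples form 1 group. Depth and the scaling of the signal value are unknown, so weak peaks near the IDR limit could not be judged for read support.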
